A study of Homo sapiens with 2 samples.

Results

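The mitochondrial ribosomal protein genes were taken as every row of the deposited gene table whose symbol was MRPL or MRPS, a number and at most 1 letter. The rule found 76 of the 13137 listed genes, 47 named for the large subunit (MRPL) and 29 for the small subunit (MRPS). All 76 carried a mitochondrial term in the gene ontology column of the table, and 61 of them the term structural constituent of ribosome. Digital gene expression (DGE), in which 1 short sequence tag per polyadenylated mRNA is counted, was measured in 2 libraries of A549, a human lung adenocarcinoma cell line. One library was labelled shRNA-SOX2 (A549-H1TetO-shRNA-SOX2, a doxycycline-inducible hairpin against the transcription factor SOX2) and the other shRNA-Con (A549-H1TetO-shRNA-Con, a scrambled hairpin). Both lines were made with lentivirus and puromycin selection as polyclonal lines, and both were incubated with doxycycline for 4 days before 4 µg of total RNA was taken. The study asked which genes respond when SOX2 is depleted. With 1 library per group there was no replicate check, so each test below compared these 2 libraries and not the conditions, and each interval covers counting error only.

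The mitochondrial ribosome translates the few mRNAs made from mitochondrial DNA, which encode core subunits of the respiratory chain and of ATP synthase. Its RNA is made inside the organelle, but all of its proteins are encoded in the nucleus, made in the cytosol and imported. Some have counterparts in the ribosome of bacteria, from which the organelle descends, and others are found in mitochondria only.

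The tags on genes numbered 2304184 in shRNA-Con, against 2093816 for the library labelled shRNA-SOX2, which was 65.5% and 60.6% of the clean tags of each library. SOX2 itself (Entrez Gene 6657) had 16 tags in shRNA-Con against 23 in the library labelled shRNA-SOX2 (ratio 1.58, 95% interval 0.800 to 3.20, adjusted p = 0.333, Fisher's exact test). The targeted gene was thus not lower in the library that carries its name, so that library is called by its label throughout. The table heads its columns with abbreviations, where SC was taken to stand for shRNA-Con and the remaining column for shRNA-SOX2. Wherever a gene's tags are given as a pair of numbers below, shRNA-Con comes first and the library labelled shRNA-SOX2 second. Of the A549 epithelial markers 7 of 8 were listed. KRT18 (10318 and 7887 tags), KRT8 (7702 and 12729), ALDH1A1 (7035 and 14268) and AKR1B10 (6039 and 4581) had many tags. KRT19 (35 and 127), CDH1 (50 and 50) and EPCAM (8 and 4) had few. The listed markers of leukocytes summed to 13 and 12 tags, of endothelium to 3 and 0 and of fibroblasts to 46 and 52. Of 5 alveolar type II markers 0 matched a row, and the genes of mitochondrial DNA matched 0 rows. Because the RNA came from bulk cultures, fewer cells with a transcript and less of it per cell cannot be told apart.

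Of the 76 genes, 21 differed between the libraries at an FDR of 0.001 (two-sided Fisher's exact test on tag counts, adjusted over all 13137 genes). In the library labelled shRNA-SOX2 the tags were fewer for 17 of them (lower) and more for 4 (higher). Among all listed genes 21.7% were called, 12.2% lower and 9.53% higher. The members carried more tags than most genes, and a gene with more tags passes the test at a smaller change, so genes with at least 100 tags in both libraries together are the closer background. At that depth 20 of 69 members were called, against 39.1% of all genes. Lower calls were made for 16 of these 69 members (23.2%), against 22.5% of all genes, and higher calls for 4 (5.80%), against 16.6%. The share of lower calls was thus near the background. Whether the smaller share of higher calls departs from the background was not tested.

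The log2 fold change, for which each count was divided by the gene tags of its library and shRNA-Con was the denominator, had a median of −0.21 over the 75 members with at least 20 tags (quartiles −0.67 and 0.11). Over the 10045 listed genes with at least 20 tags the median was −0.10 (quartiles −0.62 and 0.44). The choice of scaling moved these values together. Scaling by TMM factors or by the median ratio raised every fold change by 0.07, and scaling by clean tags lowered it by 0.11. The member median then came to −0.13, −0.14 and −0.32, and the median of all genes to −0.03, −0.03 and −0.22. The lower and higher calls, 17 and 4 (81.0% lower), became 14 and 6 (70.0% lower) with TMM factors or the median ratio, and 24 and 4 (85.7% lower) with clean tags. The lower share of all calls was 56.1%, and 49.4%, 49.7% and 66.6% under the same alternatives. The fold changes of the 69 members with at least 100 tags spread less than those of all 6237 such genes (SD over genes 0.62 and 0.79), and their median size was 0.41 against 0.50 on the log2 scale.

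**Figure D1:**
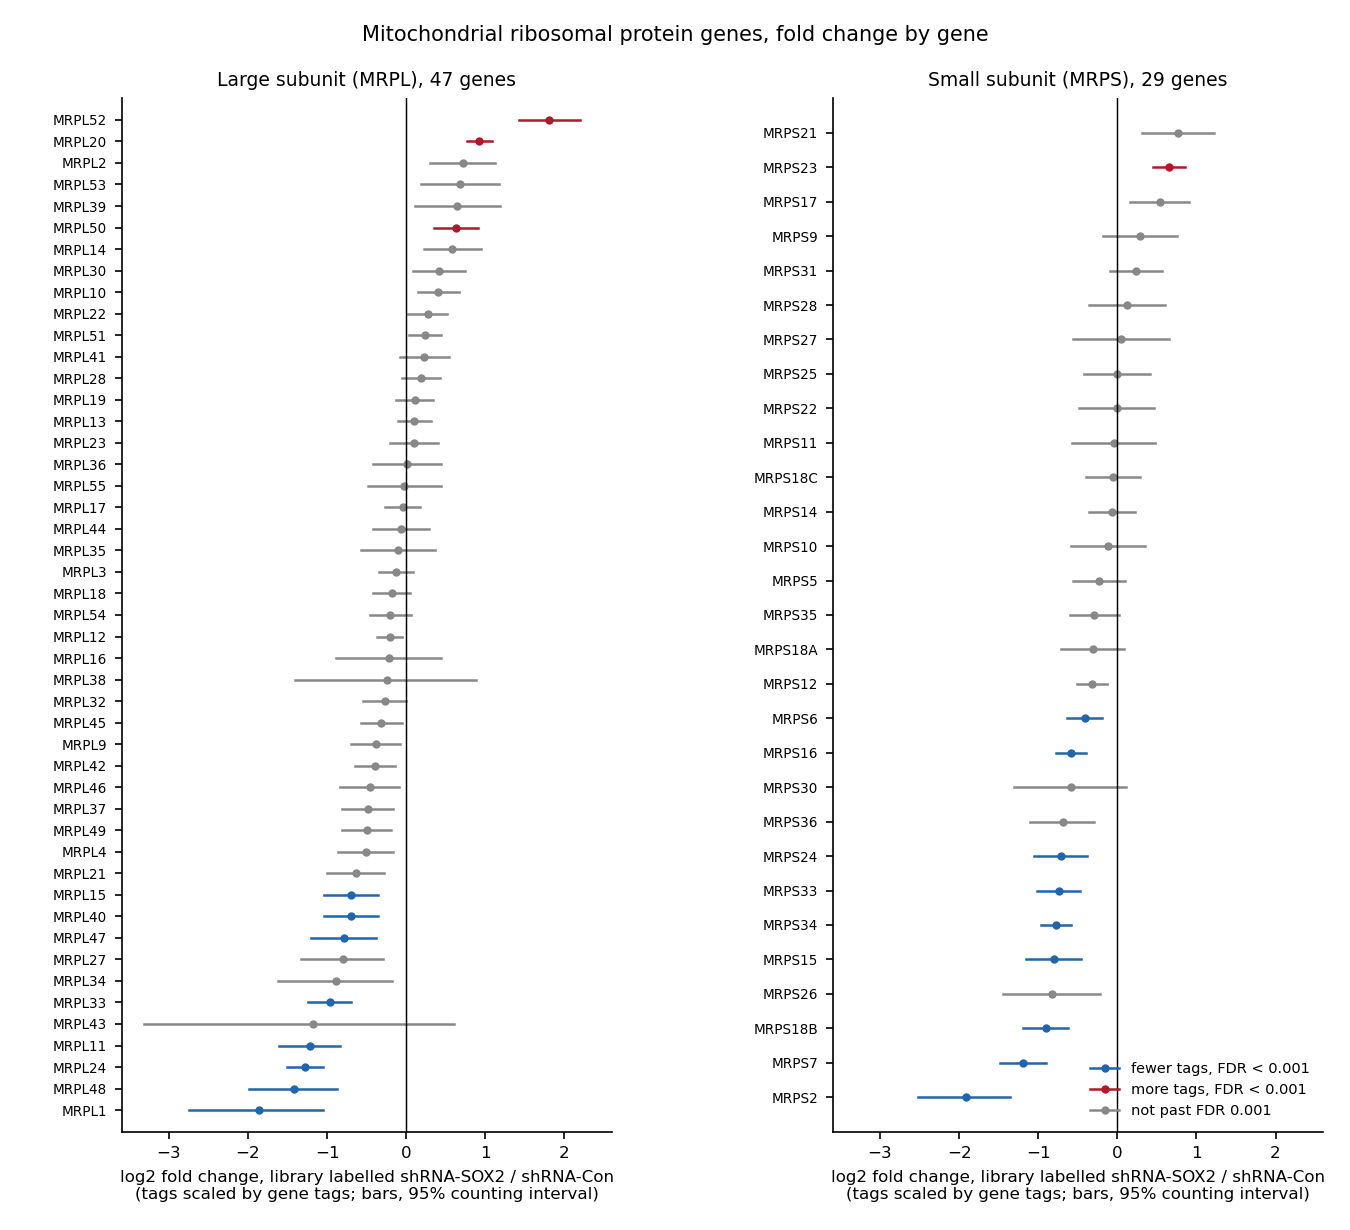
The log2 fold change of tags (x axis, shRNA-Con as denominator, scaled by gene tags) of each of the 76 genes, with 95% counting intervals as bars, in order of fold change for the 47 MRPL and 29 MRPS symbols. The 17 genes with fewer tags (blue) reach from −0.41 for MRPS6 to −1.92 for MRPS2, the 4 with more tags (red) from 0.63 for MRPL50 to 1.81 for MRPL52, and the 55 in grey did not pass the test.

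**Figure D2:**
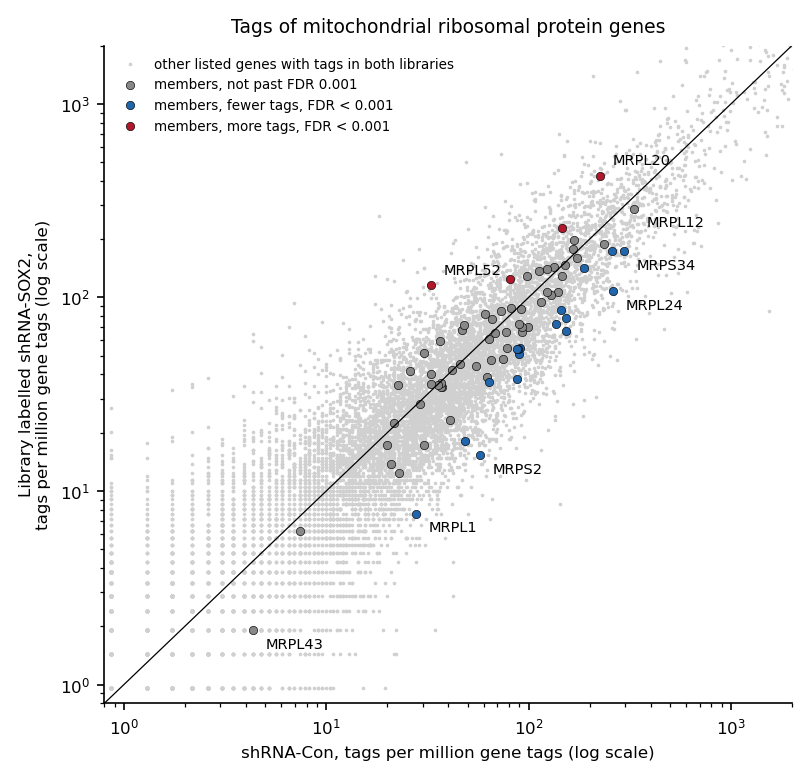
Tags, scaled to an equal number of gene tags per library, in shRNA-Con (x axis) and in the library labelled shRNA-SOX2 (y axis), both on log scales, for the 76 genes (large points) and all other listed genes with tags in both libraries (small points). The line marks equal values, and the members lie within the cloud of the other genes on both sides of the line.

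In the large subunit, taken by symbol, 8 of 47 members were lower and 3 higher. The promoters of 4 of them are shown, those with the largest changes or the most tags, because the letters upstream of the starts are compared across the family further on. Each line gives the 100 bases upstream of a RefSeq transcription start (GRCh38.p14), and capitals mark matches on either strand to any of 5 short motifs, whose letters are given with their shares further on. The stretches lie at chr4:77862730-77862829 (MRPL1, plus strand), chr1:156741089-156741188 (MRPL24, minus strand), chr14:22829787-22829886 (MRPL52, plus strand) and chr1:1407294-1407393 (MRPL20, minus strand).
MRPL1: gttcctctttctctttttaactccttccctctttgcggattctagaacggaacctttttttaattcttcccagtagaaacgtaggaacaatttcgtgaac
MRPL24: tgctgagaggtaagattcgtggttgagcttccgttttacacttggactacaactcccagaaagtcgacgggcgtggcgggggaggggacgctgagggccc
MRPL52: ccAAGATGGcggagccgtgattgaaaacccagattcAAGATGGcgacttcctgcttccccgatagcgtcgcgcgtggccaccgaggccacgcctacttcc
MRPL20: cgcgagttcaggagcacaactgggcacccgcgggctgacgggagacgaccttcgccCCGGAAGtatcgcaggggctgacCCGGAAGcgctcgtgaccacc

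MRPL1, the protein of the mobile stalk beside the exit site for tRNA, had 64 and 16 tags (log2 fold change −1.86, adjusted p = 3.29e-06). MRPL11, at the base of the other stalk, where elongation factors bind, had 202 and 79 tags (−1.22, adjusted p = 3.68e-10). MRPL12, the counterpart of the bacterial stalk protein L7/L12, changed less in the same direction, with 765 and 602 tags (−0.21, adjusted p = 0.0258). It was not called at the FDR of 0.001 except with clean tag scaling. MRPL10 went the other way without being called, with 225 and 271 tags (0.41, adjusted p = 0.00690). MRPL24 had 602 and 225 tags, a ratio of 0.411 (95% interval 0.351 to 0.480, log2 −1.28, adjusted p = 2.02e-31). It held the third most tags of the large subunit in both libraries together, so its interval was narrow. MRPL48, a protein without a bacterial counterpart, had 112 and 38 tags (−1.42, adjusted p = 2.40e-07).

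The remaining lower members of the large subunit fell by less than 1 on the log2 scale. MRPL33, a small protein with a bacterial counterpart, had 352 and 164 tags (−0.96, adjusted p = 4.80e-12). MRPL47, the counterpart of bacterial L29 near the exit tunnel, had 146 and 77 tags (−0.78, adjusted p = 0.000465). MRPL40, which has no bacterial counterpart, had 203 and 114 tags (−0.69, adjusted p = 0.000165). MRPL15, which has one, had nearly the same values, 201 and 113 tags (−0.69, adjusted p = 0.000191). Of these 4, MRPL47 and MRPL15 were not called with TMM or median ratio scaling.

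The higher members of the large subunit were MRPL52, MRPL20 and MRPL50. MRPL52, found in mitochondria only, had 76 and 242 tags, the largest ratio of the family (3.50, 95% interval 2.70 to 4.60, log2 1.81, adjusted p = 1.43e-23). MRPL20, a protein with a bacterial counterpart that binds the large rRNA, had 519 and 892 tags (ratio 1.89, interval 1.70 to 2.11, adjusted p = 2.34e-30). It had the most tags of all members in the library labelled shRNA-SOX2, while MRPL12 had the most in shRNA-Con. MRPL50 had 186 and 262 tags (log2 0.63, adjusted p = 2.70e-05). Of the well counted members that were not called, MRPL51 had 384 and 412 tags (0.24, adjusted p = 0.0512) and MRPL13 382 and 373 (0.10, adjusted p = 0.466).

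In the small subunit, taken by symbol, 9 of 29 members were lower and 1 higher. The promoters of 4 of the lower genes are shown, 2 for the size of the change or the number of tags (MRPS2, the lowest member, and MRPS34, with the most tags of the small subunit) and 2 for an upstream match that the other lines lack (MRPS18B and MRPS16). They lie at chr9:135499865-135499964 (MRPS2, plus strand, its more upstream start), chr16:1773135-1773234 (MRPS34, minus strand), chr6:30617740-30617839 (MRPS18B, plus strand) and chr10:73252645-73252744 (MRPS16, minus strand).
MRPS2: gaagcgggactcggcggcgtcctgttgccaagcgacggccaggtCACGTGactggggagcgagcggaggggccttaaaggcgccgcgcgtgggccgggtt
MRPS34: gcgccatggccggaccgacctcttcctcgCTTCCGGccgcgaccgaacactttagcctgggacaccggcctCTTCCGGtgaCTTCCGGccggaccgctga
MRPS18B: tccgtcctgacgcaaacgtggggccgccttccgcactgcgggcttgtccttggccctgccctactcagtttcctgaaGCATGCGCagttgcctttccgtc
MRPS16: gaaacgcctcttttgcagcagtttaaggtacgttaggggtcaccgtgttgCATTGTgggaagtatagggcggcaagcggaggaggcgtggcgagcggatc

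MRPS2, whose bacterial counterpart joins the small subunit late in assembly, had 133 and 32 tags. Its ratio of 0.265 (95% interval 0.174 to 0.392, log2 −1.92, adjusted p = 1.33e-12) was the lowest of the family. MRPS7, in the head of the subunit, had 352 and 140 tags (log2 −1.19, adjusted p = 1.22e-16). These were the small subunit members that fell by more than 1 on the log2 scale. MRPS18B, one of the S18-like proteins that mitochondria carry in several forms, had 316 and 153 tags (−0.91, adjusted p = 6.41e-10). The other forms, MRPS18A with 127 and 93 tags (−0.31, adjusted p = 0.225) and MRPS18C with 157 and 137 (−0.06, adjusted p = 0.859), were not called.

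Members with bacterial counterparts made up most of the rest. MRPS15 had 206 and 107 tags (−0.81, adjusted p = 1.21e-05), and MRPS24, the counterpart of bacterial S3 at the mRNA entry, had 208 and 115 (−0.72, adjusted p = 9.52e-05). MRPS16 had 596 and 362 tags (−0.58, adjusted p = 1.15e-08). MRPS6 had the smallest change among the called genes, with 434 and 296 tags (−0.41, adjusted p = 0.000640), and was not called with TMM or median ratio scaling. The mitochondria-specific proteins MRPS34, with 682 and 362 tags (−0.78, adjusted p = 6.35e-16), and MRPS33, with 331 and 180 (−0.74, adjusted p = 1.51e-07), were lower as well. MRPS23, also specific to mitochondria, was the higher member, with 336 and 480 tags (0.65, adjusted p = 1.77e-09). MRPS12, a protein of the decoding centre, had 542 and 394 tags (−0.32, adjusted p = 0.00301).

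The threshold fell between members with like values. Just inside lay MRPS6 and MRPL47, given above. Just outside lay MRPL21 with 173 and 101 tags (−0.64, adjusted p = 0.00153) and MRPS36 with 144 and 81 tags (−0.69, adjusted p = 0.00209). On the higher side the nearest uncalled members were MRPL2 with 84 and 125 tags (0.71, adjusted p = 0.00212) and MRPS21 with 70 and 108 tags (0.76, adjusted p = 0.00221). Both of these were called higher with TMM and with median ratio scaling. With clean tags the 7 added lower calls were MRPS36, MRPL21, MRPL49, MRPL37, MRPL42, MRPS12 and MRPL12. MRPS36 was later assigned to the 2-oxoglutarate dehydrogenase complex, and MRPS18A and MRPS30 sit in the large subunit despite their names. MRPS30 had 48 and 29 tags (−0.59, adjusted p = 0.176).

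Of the 55 members that were not called, 35 had a log2 fold change below 0 and 20 above 0. The 95% counting interval of the ratio included 1 in 31 of the 55, so a member that was not called is not thereby unchanged. The fold change of 27 lay within 0.25 of 0, and the interval included 1 in 25 of the 27. Beyond that range 18 lay on the lower side, among them MRPL34 with 53 and 26 tags (−0.89, adjusted p = 0.0278) and MRPL27 with 94 and 49 (−0.80, adjusted p = 0.00527). On the higher side were 10, among them MRPL53 with 60 and 87 tags (0.67, adjusted p = 0.0194) and MRPL14 with 111 and 151 (0.58, adjusted p = 0.00479). No member was below 3 tags in a library. The fewest tags were those of MRPL43, with 10 and 4, for which a ratio between 0.101 and 1.53 lay within counting error. Across the 75 members with at least 20 tags, which share their libraries, the fold change and the number of tags had a Spearman's rho of 0.04 and, with log2 tags, a Pearson's r of 0.11.

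Fewer members passed when a spread between cultures was allowed for. No spread could be measured, so edgeR's exact test was run with an assumed biological coefficient of variation. At a coefficient of 0.1, 8 members were called at the same FDR, against 8.88% of all genes. The 6 lower ones were MRPS2, MRPL1, MRPL48, MRPL24, MRPL11 and MRPS7, and the 2 higher ones were MRPL52 and MRPL20. At 0.2 no member (0 of 76) was called by edgeR, against 0.860% of all genes, and 10 members had an unadjusted p under 0.05, as did 18.9% of all genes. At 0.4 edgeR called 0 members and 0 genes of the whole table, with 2 members and 4.77% of all genes under 0.05 unadjusted. When a log2 fold change of at least 1 was required beside Fisher's exact test, 6 members were lower and 1 higher, against 6.77% and 5.18% of all genes.

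The subunits and the origins of the proteins were compared as counts and medians, with no test between them. Subunits were taken by symbol, so the small subunit here includes MRPS18A, MRPS30 and MRPS36, which sit elsewhere. MRPS18A is also among its proteins with a bacterial counterpart. The large subunit median was −0.19 and the small subunit median −0.29, beside −0.10 for all genes. Members with a bacterial counterpart (48) had 13 lower and 1 higher call and a median of −0.20. Those found in mitochondria only (27) had 4 lower and 3 higher calls and a median of −0.22. These counts stand beside 12.2% lower and 9.53% higher calls among all genes, and 22.5% and 16.6% among genes with at least 100 tags. The 18 small subunit proteins with a bacterial counterpart held 7 lower and 0 higher calls by Fisher's exact test, and MRPS21 was called higher among them with TMM and median ratio scaling. Summed over the family, tags made up 0.706% of gene tags in shRNA-Con (16264 tags, 95% interval 0.695% to 0.717%) and 0.627% in the other library (13130 tags, 0.616% to 0.638%). These intervals cover counting error only and are narrow because the tags are many. They did not overlap, but neither did those of the cytosolic ribosomal proteins or of the complex I subunits described below. The ratio of the family's shares was 0.888, and 0.934, 0.933 and 0.821 with TMM, median ratio and clean tag scaling. For the small subunit it was 0.785 (0.726 to 0.826 under the other scalings). For the large subunit it was 0.951 by gene tags and 0.879 by clean tags, but 1.0003 with TMM factors and 0.999 with the median ratio, so its direction rests on the scaling.

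The ribosome of the cytosol and complex I of the respiratory chain were set beside the family as other multi-protein assemblies encoded in the nucleus. Of 77 cytosolic ribosomal protein genes 47 were lower (61.0%) and 14 higher (18.2%), with a median of −0.40, although their summed tags had a ratio of 1.06. They had more tags (a median of 4905 a gene against 313.5 for the mitochondrial family), and a gene with more tags passes at a smaller change. Of 35 complex I subunit genes 7 were lower and 13 higher, with a median of 0.13. At least 100 tags were reached by 74 of the 77 and 32 of the 35. At that depth 22.5% of all genes were lower and 16.6% higher. The cytosolic higher calls and the complex I lower calls had shares near these. The cytosolic lower calls and the complex I higher calls had larger shares. The median of the mitochondrial family lay between the medians of the cytosolic and complex I genes and nearer to that of all genes. The differences were not tested.

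**Figure D3:**
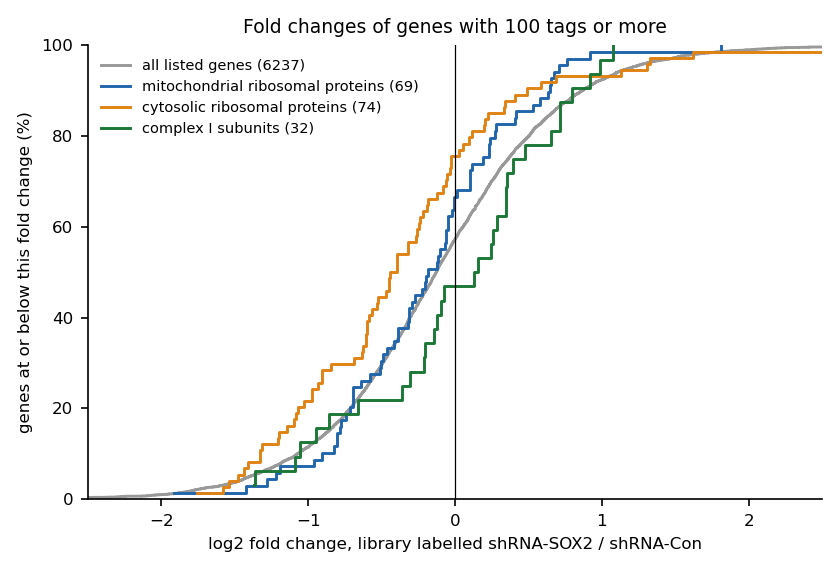
Cumulative share of genes (y axis, %) at or below each log2 fold change (x axis, shRNA-Con as denominator), for genes with at least 100 tags in both libraries together. The curve of the 69 mitochondrial ribosomal protein genes (blue) stays close to that of all 6237 genes (grey) on the lower side and rises above it on the higher side, while the cytosolic ribosomal proteins lie to the left and the complex I subunits to the right over most of the range.

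Mitoribosomal proteins that carry other symbols were counted as well, and both directions were found among the 7. All 7 had at least 100 tags, a depth at which 22.5% of all genes were lower and 16.6% higher. GADD45GIP1 (CRIF1), a large subunit protein at the exit tunnel, had 328 and 132 tags (−1.18, adjusted p = 2.78e-15). DAP3, the GTP-binding protein of the small subunit, had 207 and 282 tags (0.58, adjusted p = 5.30e-05), and the small subunit protein CHCHD1 had 206 and 285 (0.61, adjusted p = 2.47e-05). With clean tag scaling DAP3 was not called and PTCD3 was called lower, which gave 2 lower and 1 higher call in place of 1 and 2. The other members of this list did not pass by gene tags. PTCD3 had 210 and 138 tags (−0.47, adjusted p = 0.0106), AURKAIP1 309 and 258 (−0.12, adjusted p = 0.476), ICT1, a peptidyl-tRNA hydrolase built into the large subunit, 366 and 408 (0.29, adjusted p = 0.0159), and MRP63 76 and 111 (0.68, adjusted p = 0.00584).

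Of the 15 mitochondrial translation factors 2 were lower (13.3%) and 1 higher (6.67%). These shares stand beside 12.2% and 9.53% of all genes, and 22.5% and 16.6% of genes with at least 100 tags, which 9 of the 15 reached. The median was −0.54 over the 13 with at least 20 tags and is the value of MTFMT, with 24 and 15 tags. The summed tags of the list had a ratio of 0.908. MTIF2, the initiation factor that brings the first tRNA to the small subunit, had 265 and 99 tags (−1.28, adjusted p = 3.88e-14). OXA1L, the inner membrane insertase that receives new chains from the ribosome, had 350 and 187 (−0.77, adjusted p = 2.75e-08). TSFM, the exchange factor of the elongation factor TUFM, was higher, with 219 and 309 tags (0.63, adjusted p = 4.56e-06), while TUFM had 726 and 720 (0.13, adjusted p = 0.192). Scaling by clean tags added GUF1, LETM1 and MRRF to the lower calls.

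The 28 assembly factors gave 2 lower and 2 higher calls (7.14% each) and a median of −0.21. Among all genes 12.2% were lower and 9.53% higher, and 22.5% and 16.6% among those with at least 100 tags, as 20 of the 28 had. MTERFD1, which is needed to assemble the ribosome, had 161 and 82 tags (−0.84, adjusted p = 8.80e-05), and RPUSD3, a pseudouridine synthase, 135 and 66 (−0.89, adjusted p = 0.000152). The GTPase MTG1 had 159 and 270 tags (0.90, adjusted p = 2.77e-09), and SPG7, a subunit of the protease that matures MRPL32, 217 and 286 (0.54, adjusted p = 0.000207). MRPL32 itself had 264 and 199 tags (−0.27, adjusted p = 0.114). SPG7 was not called with clean tag scaling, which added AFG3L2, the partner of SPG7, and C7orf30 as lower.

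Among 13 factors of mitochondrial transcription and mRNA handling 3 were lower and 3 higher (23.1% each), with a median of −0.25. Of all genes with at least 100 tags, a depth that 12 of the 13 reached, 22.5% were lower and 16.6% higher. TFAM, which packages mitochondrial DNA and starts its transcription, had 84 and 35 tags (−1.12, adjusted p = 0.000348), and TFB2M, which opens the promoter with the polymerase POLRMT, had 214 and 101 (−0.95, adjusted p = 2.31e-07). LRPPRC, which keeps mitochondrial mRNAs stable, had 884 and 522 (−0.62, adjusted p = 4.73e-14). Its partner SLIRP went the other way without being called, with 779 and 851 tags (0.27, adjusted p = 0.001002), and was called higher with TMM and median ratio scaling. The higher genes were the RNA processing factors FASTKD3 with 73 and 138 tags (1.06, adjusted p = 2.03e-06) and FASTKD5 with 150 and 265 (0.96, adjusted p = 3.95e-10), and C17orf42 (TEFM), an elongation factor of the mitochondrial polymerase, with 82 and 134 (0.85, adjusted p = 0.000124). C17orf42 was not called with clean tags.

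**Figure D4:**
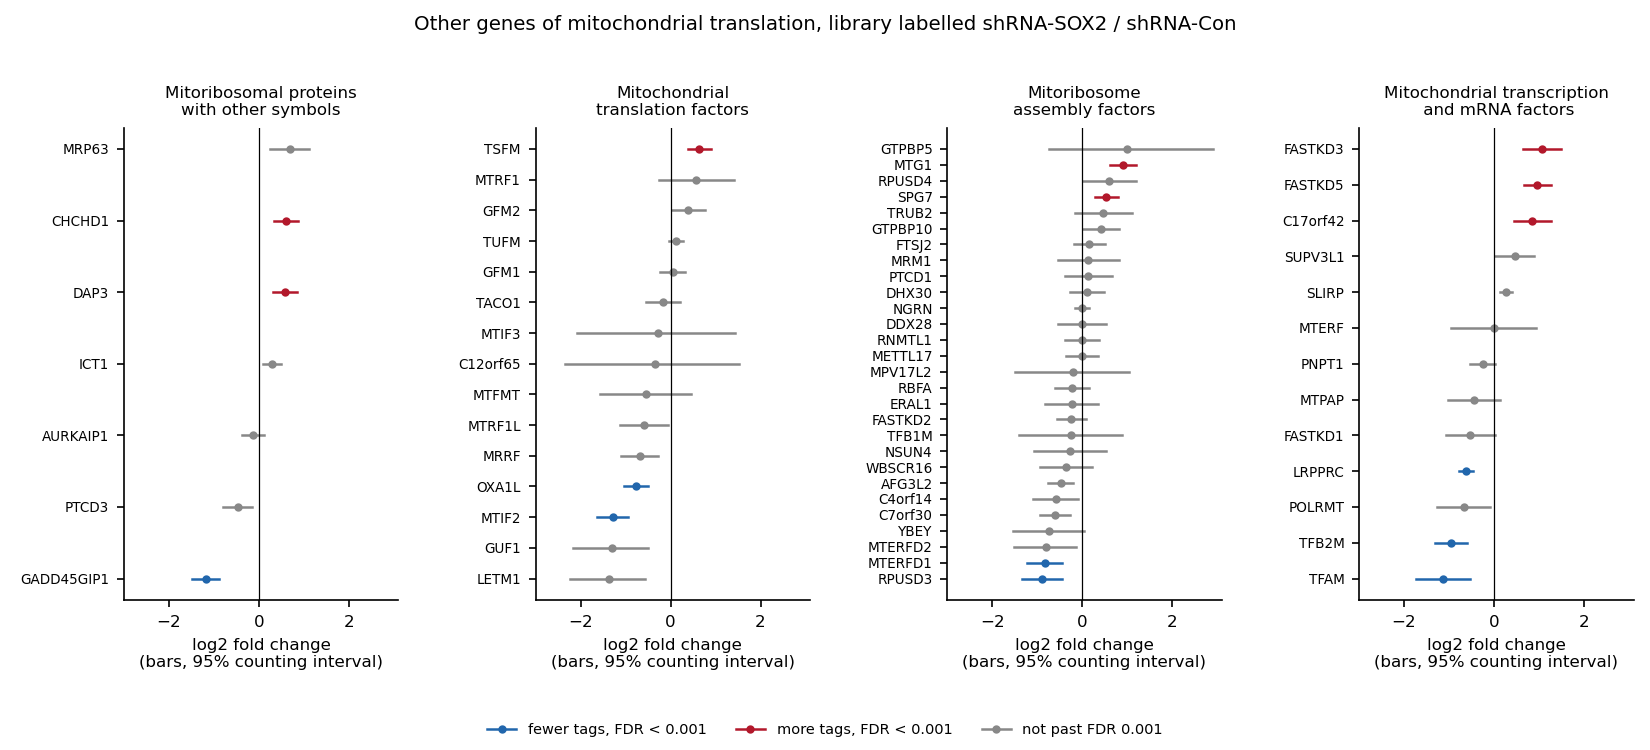
The log2 fold change (x axes, shRNA-Con as denominator) of each listed gene in 4 further lists of mitochondrial translation, with 95% counting intervals as bars. Lower calls (blue) and higher calls (red) stand side by side in each list: 1 and 2 among the proteins with other symbols, 2 and 1 among translation factors, 2 and 2 among assembly factors, 3 and 3 among transcription and mRNA factors. Among all listed genes 12.2% were lower and 9.53% higher, and 22.5% and 16.6% among those with at least 100 tags.

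The promoters of the family were read from RefSeq (GRCh38.p14), 250 bases before to 50 after each start. They matched 68 of the 76 members with 84 starts, and MRPL2, MRPL10, MRPL13, MRPL15, MRPL21, MRPL23, MRPL35 and MRPS28 had no entry. Both strands were searched for 5 short motifs, none of which contains another: CCGGAAG (ETS-type, the core bound by GABPA), AAGATGG (YY1-type), GCGCATGC (NRF1-type), CACGTG (E-box, its own reverse complement) and ACAATG (SOX-type). GABPA, NRF1 and YY1 are known regulators of nuclear genes for mitochondrial proteins. A match is given as a description of the letters and not as a site.

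Counted over the whole of these windows, ETS-type letters stood in 38.1% of the 84 member promoters, 10.3% of all 35116 promoters and 17.9% of the 12206 promoters of genes with at least 20 tags. In the lines above they are the capitals of MRPL20 and MRPS34, of which the former was higher and the latter lower. YY1-type letters stood in 32.1% of member promoters, 5.84% of all and 7.46% of those with tags, and are the capitals of MRPL52. NRF1-type letters, the capitals of MRPS18B, had shares of 7.14%, 3.05% and 5.04% in the same order. The E-box, the capitals of MRPS2, had shares of 11.9%, 7.26% and 9.73%. SOX-type letters, the capitals of MRPS16, had shares of 8.33%, 10.8% and 6.47%. Lower, higher and uncalled members all included promoters with ETS-type and with YY1-type letters. ETS-type letters were found in 7 of 16 lower, 3 of 4 higher and 19 of 48 uncalled members, and YY1-type letters in 6, 3 and 15 of them. SOX-type letters were found in 4 of 16 lower, 0 of 4 higher and 3 of 48 uncalled members. These shares were not tested against each other, and the lines of MRPL1 and MRPL24, both lower, hold none of the motifs.

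Of the 68 members with a promoter entry, 18 had a listed neighbour that starts on the opposite strand within 1000 bases. In the 17 cases where the neighbour had at least 20 tags the fold changes of the genes had the same sign in 8 (Spearman's rho 0.02, Pearson's r −0.05 across the 17, in which MRPL46 and MRPS11, 320 bases apart, are counted from both sides). MRPS2, the lowest member, starts 96 bases from PIERCE1, which had 34 and 41 tags (0.41, adjusted p = 0.381). MRPS7 starts 273 bases from GGA3, which had 175 and 189 tags (0.25, adjusted p = 0.203). Neither neighbour was called, while both members were lower. MRPS18B and PPP1R10, 597 bases apart, were called in opposite directions, PPP1R10 with a log2 fold change of 0.93 from 90 tags in shRNA-Con (adjusted p = 5.35e-06). In 5 cases the neighbour alone was called. SARS2, the mitochondrial seryl-tRNA synthetase beside MRPS12, had 75 and 19 tags (−1.84, adjusted p = 5.51e-07), and the proteasome subunit gene PSMA2 beside MRPL32 had 695 and 921 (0.54, adjusted p = 7.45e-13).

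Pseudogenes of near-identical sequence could have split the tags of some members in the authors' counting. RefSeq names 98 pseudogenes after 41 of the members, and none (0) of them has a row of its own in the table. They include 11 of the 17 lower members, with 4 for MRPS33 and 3 each for MRPS16 and MRPS6, and 3 of the 4 higher members, with 4 for MRPL50 and 1 each for MRPL20 and MRPS23. Of the 55 uncalled members 27 are included as well, with 9 pseudogenes for MRPS21. The pseudogenes were matched by name, and their sequences were not compared. The values of members with such pseudogenes are uncertain. MRPS2, MRPL1, MRPL24, MRPL52 and MRPS34 have no pseudogene named after them.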

How the data were processed

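Digital gene expression libraries were made from oligo(dT)-selected mRNA of 2 A549 cultures, 1 per group, at the Beijing Genomics Institute. The authors deposited tag counts per Entrez Gene ID without normalization. They also deposited TPM, which are counts scaled to the clean tags of the whole library and not divided by length, with 0 tags written as 0.01. These TPM values served here only to recover the number of clean tags (3516266 for shRNA-Con, 3456234 for shRNA-SOX2). The deposited columns with the authors' log2 ratio, P-value and FDR for the same comparison were not used. The aligner and annotation are not given in the sources used here, and hg19 is named in the submitters' processing notes. No sample column was left unused (0). The fewest tags listed for a gene with any are 2.

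Counts were divided by the gene tags of each library, with a count below 3 set to 3 for log2 fold changes. One count of 0 allows up to 3 tags, or 0.000130% (shRNA-Con) and 0.000143% (shRNA-SOX2) of gene tags. Fisher's exact test, two-sided, was run for each gene, p-values were adjusted by Benjamini-Hochberg over 13137 genes, and the FDR of 0.001 follows the study's methods. Intervals are 95% Clopper-Pearson intervals. Rows without a symbol held 0.0535% and 0.0372% of gene tags. Medians use genes with at least 20 tags in both libraries together. Of the IDs, 13086 were found in RefSeq.

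The genes described are all members past the threshold, the 5 of each subunit with the most tags, those beside the threshold, those whose symbol misnames the subunit, and the members of the other lists past the threshold, with all of the first of these lists. The neighbours, MRPS18C, MRPL53, MRPL14, MRPL34, MRPL27, MRPL32, MRPL43 and TUFM were named after their values were seen. So were MRPS21, MRPL10, MRPL49, MRPL37, MRPL42, MTFMT, GUF1, LETM1, MRRF, AFG3L2, C7orf30 and SLIRP. Members and lists were chosen with earlier results of these data known. Alternatives were scaling by TMM factors (edgeR 4.0.16; 1.03 for shRNA-Con and 0.975 for shRNA-SOX2), by the median ratio (DESeq2 1.42.0; 1.02 and 0.976) or by clean tags, testing genes with 10 tags or more, 0.5 added to counts, edgeR's exact test with an assumed coefficient of variation, an FDR of 0.05, and requiring a log2 change of 1 or more. Python 3.11.15, scipy 1.17.1 and R 4.3.3 were used, and the steps were tested on simulated data.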

Additional observations from a re-analysis of the deposited data

How the results depend on the processing

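With 1 library per group no spread between cultures could be measured, and the calls depend on the spread that is assumed. The count of lower members, 17, became 6 with edgeR's exact test at an assumed coefficient of variation of 0.1, and 0 at 0.2 and at 0.4, where 8 and 1 lower members had an unadjusted p under 0.05 (18.9% and 4.77% of all genes, either direction). It became 31 at an FDR of 0.05 and 6 when a log2 fold change of at least 1 was required. The count of higher members, 4, became 2, 0 and 0 at the 3 assumed coefficients (2 and 1 higher members under 0.05 unadjusted at 0.2 and 0.4), 12 at an FDR of 0.05 and 1 with the minimum change. Of all genes 6.77% were lower and 5.18% higher with the minimum change. No share of all genes is given here for the FDR of 0.05, so the counts of 31 and 12 have no background beside them. With at least 10 tags the counts were again 17 and 4. The median log2 fold change of the members, −0.21, moved to −0.13 (TMM), −0.14 (median ratio) and −0.32 (scaling by clean tags), by as much as the median of all genes. It was −0.21 with a minimum of 10 tags, −0.21 with 0.5 added to each count and −0.18 over members with at least 100 tags. Of 30 members recomputed singly, MRPL13 changed sign with clean tags (−0.0096, adjusted p = 0.996), and 26 kept their direction and side of the threshold with TMM factors and with the median ratio, which both lost MRPL15, MRPL47 and MRPS6 and gained MRPL2. No paired analysis was possible because each group holds 1 library, and leaving out a replicate was not possible for the same reason.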
